A study of Mus musculus with 6 samples.

Results

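Among the RNAs of D4 EBs, those of 9 Notch pathway genes are described here: the receptors *Notch1*, *Notch2* and *Notch3*, the ligands *Dll1*, *Dll3* and *Jag1*, the receptor-modifying enzyme *Lfng*, the nuclear effector *Rbpj* and the target *Hes1*. They were chosen by name as pathway genes, and all 9 were among the 15266 genes of the deposited table. EBs are suspended aggregates of differentiating mESCs, here grown for 4 days in serum without LIF. EVX1-Δfs (clone 14) carries small frameshifts in both alleles of the *Evx1* homeodomain exon. Del#3, written Evx1/Evx1asΔ2.6kb in the labels, has lost the shared promoter region of *Evx1* and its antisense lncRNA *Evx1as*. By the paper, this deletion also took the separate intronic promoter of *Evx1as* and some of its exon sequence. Both lines derive from W9.5 mESCs by CRISPR-Cas9 editing and each genotype is represented by 1 line, so differences between clones and differences due to the edits cannot be told apart. There were 3 libraries per line. By the paper, the frameshifts of EVX1-Δfs leave no functional DNA-binding domain of EVX1. Del#3 has lost most RNA of both *Evx1* and *Evx1as*, together with the deleted DNA. The comparison therefore does not isolate the loss of *Evx1as*. WT EBs were not analysed here.

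Notch signalling passes between touching cells. Delta and Jagged ligands on one cell bind Notch receptors on the next, the receptor is cut by ADAM10 and then by γ-secretase, and the freed intracellular part enters the nucleus, where it joins RBPJ and Mastermind proteins to switch on Hes and Hey repressors. In the gastrulating embryo the pathway is best known from the presomitic mesoderm, where Dll1, Dll3, Lfng and Hes7 act in the clock that times somite formation, and from the choice between neighbouring mesoderm and vascular fates.

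The libraries held between 9024579 and 15699124 reads on listed genes. *Evx1* had 2655 to 3671 normalized counts in EVX1-Δfs and 32.5 to 38.3 in Del#3, so the libraries matched their labels at the edited locus. The frameshift in EVX1-Δfs is not visible in counts per gene. Primitive streak markers without *Evx1* summed to 6320 to 8049 normalized counts in EVX1-Δfs and 4970 to 8150 in Del#3, with *Mixl1* the lowest of these markers at a mean of 491. Epiblast markers, led by *Pou5f1*, summed to 8538 to 10535 and 6753 to 10984. Visceral endoderm markers summed to 54.3 to 76.2 and 54.5 to 202, the highest of these in Del#3 replicate 1, with *Ttr* at a mean of 39.2 and *Afp* at 3.16. The neural markers *Sox1* and *Pax6* averaged 3.05 and 6.64. Presomitic mesoderm markers summed to 315 to 630 and 410 to 531, led by *Rspo3* and *Mesp2* with means of 201 and 180, while the clock gene *Hes7* had at most 3.54 in any library. Endoderm markers, led by *Cer1*, summed to 3407 to 4338 and 2659 to 3967. Vascular and blood markers, led by *Kdr*, summed to 2950 to 3359 and 2733 to 3732. *Sox17* was lower in every Del#3 library (518 to 647) than in any EVX1-Δfs library (715 to 800), while the other endoderm markers overlapped. Of all genes tested, 3.51% were separated in either direction. Besides *Evx1*, 0 of the cell type markers tested had an unadjusted p under 0.05 by limma. In such bulk RNA, fewer cells of a type and less RNA per cell cannot be told apart. By the study's methods, replicates came from different days and the lines under comparison shared a day, so the design is paired by day. Equal replicate numbers were taken to mark a shared day, which the sample titles do not state.

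The 9 genes had like levels in both lines by mean, with the Notch receptors slightly higher in Del#3 on the log2 scale by limma and the other 6 slightly lower (*Notch1* was lower by edgeR, at -0.049, and by DESeq2, at -0.060, and without EVX1-Δfs replicate 3 all 3 receptors were lower, at -0.42, -0.10 and -0.057 for *Notch1* to *Notch3*). No difference passed the test. By limma on log2(normalized count + 1), with Benjamini-Hochberg adjustment over 12891 genes, 0 of the 9 passed an adjusted p of 0.05, against 0.0155% of all genes tested, which were *Evx1* and *Evx1as* alone. With the replicate number as a block, 0 of the 9 passed as well, against 0.0233% of all genes. Without adjustment, 0 of the 9 had a p under 0.05 in either fit, where 1.03% of all genes did without and 4.62% with the block. edgeR's quasi-likelihood test and DESeq2's Wald test on the recovered reads also gave 0 members, adjusted or not. The median log2 fold change of the 9 genes was -0.082, and that of all genes tested was 0.0022. Leaving out 1 library moved the former between -0.20 (without Del#3 replicate 3) and 0.049 (without Del#3 replicate 1), so its sign was not stable. A 2-fold rise and a 2-fold fall both lay outside the 95% interval for 7 of the 9 genes, or for 8 when the block was used. Over all genes tested this held for 7874 of 12891, or for 9819 with the block. A miss of the threshold does not show that the lines have equal levels, and the intervals below give what these libraries leave possible.

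**Figure D1:**
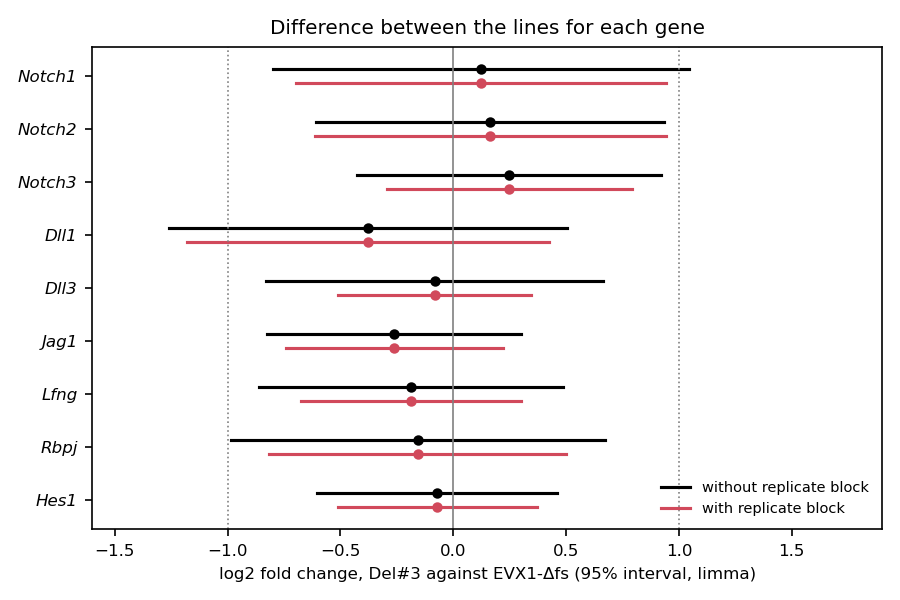
Log2 fold change of each gene in Del#3 against EVX1-Δfs (horizontal axis, no other unit), as a point with its 95% interval by limma, without (black) and with (red) the replicate number as a block. Every interval spans 0, and only those of *Notch1* (black) and *Dll1* (both) reach past the dotted lines, which mark a 2-fold change.

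*Notch1* (chromosome 2, minus strand, 26313423 to 26372183, in NCBIM37, the mm9 assembly, as for all positions of genes) encodes the receptor that mouse embryos need for ordered somite formation. Its normalized counts were 548, 783 and 213 in the EVX1-Δfs libraries, in the order of their replicate numbers, while Del#3 had 522, 422 and 537. The Del#3 values lay inside the EVX1-Δfs range, whose lowest library, replicate 3, was 3.68-fold below the highest, the widest spread of the 9 genes. The log2 fold change was 0.12 (standard error 0.42, 95% interval -0.80 to 1.05, adjusted p = 1.00 by limma), although the mean count was slightly higher in EVX1-Δfs, at 515 ± 287 against 494 ± 62.9 (mean ± SD, n = 3 each). Without EVX1-Δfs replicate 3 the log2 fold change was -0.42, so the sign of this difference rests on 1 library.

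*Notch2* (chromosome 3, plus strand, 97817461 to 97954290), a broadly expressed receptor, had 688, 934 and 463 normalized counts in EVX1-Δfs and 877, 473 and 1010 in Del#3. The low libraries were EVX1-Δfs replicate 3 and Del#3 replicate 2, and the ranges of the lines overlapped almost fully. Its log2 fold change was 0.16 (standard error 0.35, 95% interval -0.61 to 0.93), and it turned to -0.10 without EVX1-Δfs replicate 3 and to -0.053 without Del#3 replicate 3.

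*Notch3* (chromosome 17, minus strand, 32257765 to 32303825), best known from vascular smooth muscle, was the most abundant receptor RNA per kb of exon. It had 1128, 1180 and 612 normalized counts in EVX1-Δfs and 1409, 885 and 1095 in Del#3, replicates 1 to 3 in order. The same libraries were lowest as for *Notch2*, and the lines overlapped. Its log2 fold change was 0.25 (standard error 0.30, 95% interval -0.43 to 0.92), the highest of the 9 genes, and it was -0.057 without EVX1-Δfs replicate 3.

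Among the ligands, *Dll1* (chromosome 17, minus strand, 15504318 to 15513836) encodes the main activating ligand of the presomitic mesoderm. It was the scarcest of the 9 RNAs per kb, with 28 to 117 reads per library. Its normalized counts were 77.2, 45.7 and 33.1 in EVX1-Δfs and 35.1, 36.0 and 41.7 in Del#3. EVX1-Δfs replicate 1 stood above the other 5 libraries, and those 5 fell between 33.1 and 45.7. The log2 fold change of -0.38 (standard error 0.40, 95% interval -1.26 to 0.51) was the lowest of the 9. It leaned on EVX1-Δfs replicate 1, without which it was -0.053.

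*Dll3* (chromosome 7, minus strand, 29076673 to 29087257) encodes a divergent ligand that does not activate Notch on neighbouring cells and acts inside the cell that makes it. Its normalized counts were 368, 608 and 479 in EVX1-Δfs and 276, 617 and 530 in Del#3. Replicate 1 was lowest in both lines and replicate 2 highest, so the values followed the replicate number rather than the line. Of its sum of squares on the log2 scale, 90.6% lay between replicate numbers and 0.991% between lines. The log2 fold change was -0.082 (standard error 0.34, 95% interval -0.83 to 0.67 without and -0.51 to 0.34 with the block), and it was 0.27 without Del#3 replicate 1.

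*Jag1* (chromosome 2, minus strand, 136907192 to 136942380) encodes a Jagged ligand used in vascular and other mesodermal tissue. It had 517, 566 and 483 normalized counts in EVX1-Δfs and 442, 340 and 545 in Del#3. The Del#3 libraries of replicates 1 and 2 lay below all EVX1-Δfs libraries, and Del#3 replicate 3 lay among them. Its log2 fold change of -0.26 (standard error 0.25, 95% interval -0.83 to 0.30) had the smallest unadjusted p of the 9 genes, which was 0.326 by limma and 0.3 by the two-sided exact permutation test over 3 against 3 libraries. For such a test the smallest p possible is 0.1, and over the 9 genes its p ranged from 0.3 to 1. Without Del#3 replicate 2 the log2 fold change of *Jag1* was -0.086.

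*Lfng* (chromosome 5, plus strand, 141083295 to 141091497) encodes Lunatic fringe, a Golgi enzyme that lengthens sugars on Notch and so alters which ligands it answers to. Its normalized counts were 169, 207 and 196 in EVX1-Δfs and 118, 219 and 179 in Del#3. As for *Dll3*, the replicate 1 library was the lowest of each line. Between replicate numbers lay 71.8% of its sum of squares, and between lines 10.3%. The log2 fold change was -0.19 (standard error 0.30, 95% interval -0.86 to 0.49), and it was 0.061 without Del#3 replicate 1.

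*Rbpj* (chromosome 5, plus strand, 53947018 to 54048684) encodes the DNA-binding protein through which all Notch receptors act. It had 503, 340 and 241 normalized counts in EVX1-Δfs and 400, 186 and 399 in Del#3. Its lowest libraries were again EVX1-Δfs replicate 3 and Del#3 replicate 2. The log2 fold change was -0.16 (standard error 0.37, 95% interval -0.99 to 0.67), and it was 0.11 without EVX1-Δfs replicate 1 and 0.21 without Del#3 replicate 2.

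*Hes1* (chromosome 16, plus strand, 30064470 to 30067882) encodes a bHLH repressor and is the most widely used readout of Notch activity. Its normalized counts were 437, 420 and 379 in EVX1-Δfs and 333, 399 and 451 in Del#3. It was the steadiest of the 9 RNAs, with the highest library 1.35-fold above the lowest, where the median of all genes tested was 1.96-fold. Its log2 fold change was -0.071 (standard error 0.24, 95% interval -0.60 to 0.46). A rise of *Hes1* by more than 1.38-fold lies outside the interval, as does a fall to below 0.66 of the EVX1-Δfs level. Without Del#3 replicate 1 the log2 fold change was 0.045.

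**Figure D2:**
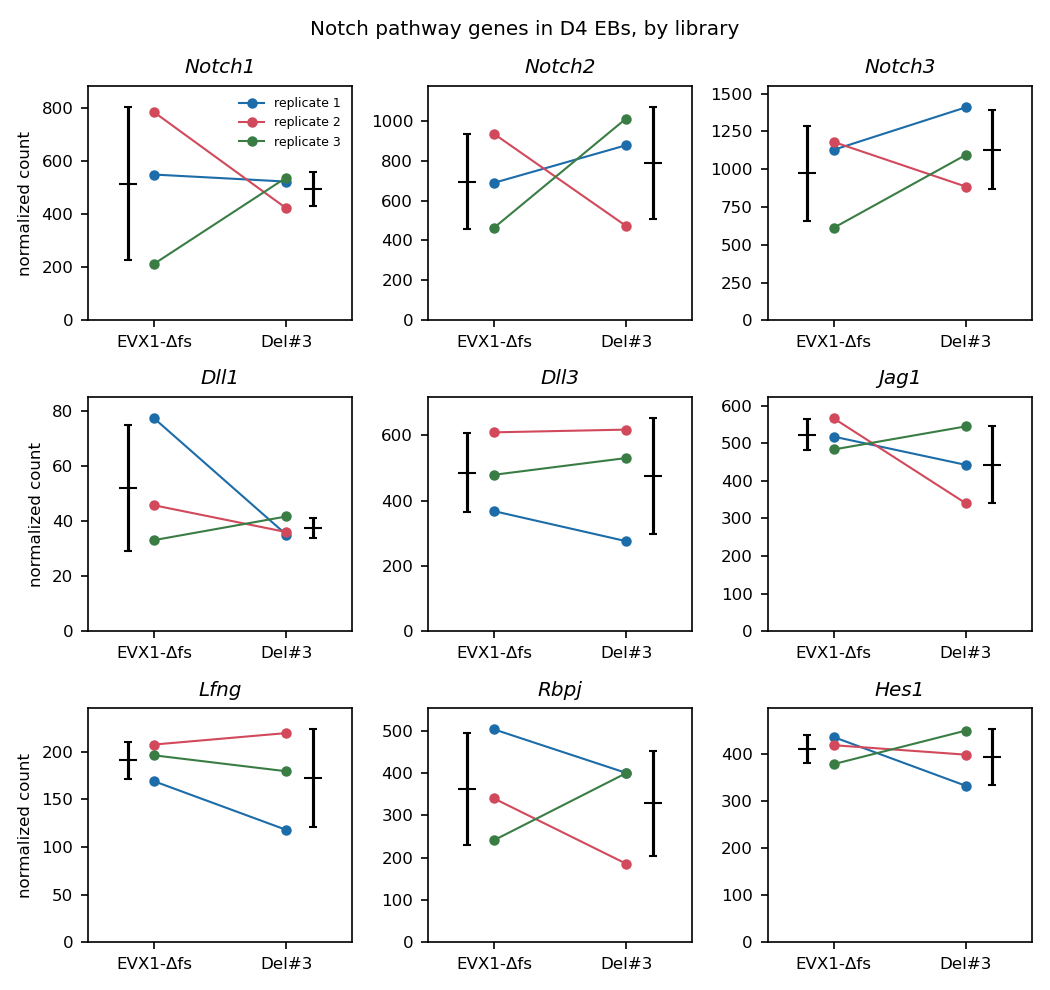
Normalized count (vertical axis from 0, a separate scale per panel) of each gene in the 3 EVX1-Δfs and the 3 Del#3 libraries, with lines joining libraries of one replicate number and black bars giving mean ± SD (n = 3). *Dll3* and *Lfng* keep the order of the replicates in both lines. For all the other genes shown, the joining line falls for replicate 2 and rises for replicate 3.

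For 0 of the 9 genes did the 3 Del#3 libraries lie all above or all below the 3 EVX1-Δfs libraries, where 3.51% of all genes tested were separated in this way. Within same-numbered pairs, 0 of the 9 genes moved one way in all 3 pairs, against 23.1% of all genes. *Notch1*, for example, differed by -0.071, -0.89 and 1.33 on the log2 scale in pairs 1 to 3, and *Notch2* by 0.35, -0.98 and 1.12. For the 9 genes the median share of the sum of squares that lay between the lines was 6.01%, close to the 6.70% of all genes tested. The share between replicate numbers had a median of 34.8% for the 9 and 64.4% for all genes.

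The spread between libraries fell into a few patterns. *Notch1*, *Notch2*, *Notch3* and *Rbpj* all had their 2 lowest values in EVX1-Δfs replicate 3 and Del#3 replicate 2, a pattern shown by 12.6% of all genes tested. These libraries come from different lines and carry different replicate numbers. Gene length moved with this pattern. Among genes with 8 kb of exon or more, 28.0% had it, and among genes under 2 kb, 4.59%. *Notch1*, *Notch2* and *Notch3* have 14.2, 10.5 and 8.04 kb of exon in the GENCODE annotation, and *Rbpj* has 5.82 kb. The median gene of 8 kb or more stood at -0.22 in EVX1-Δfs replicate 3 and -0.24 in Del#3 replicate 2, as log2 deviations from the mean over all libraries, and at 0.42 in Del#3 replicate 1. In the same EVX1-Δfs library *Notch1* deviated by -1.14, *Notch2* by -0.61 and *Notch3* by -0.73. In Del#3 replicate 2 the values were -0.16 for *Notch1* and -0.20 for *Notch3*, no lower than that median gene, and -0.58 for *Notch2*. *Rbpj* deviated by -0.44 and -0.81 in these libraries, further than the median gene of its own class of 5 to 8 kb, at -0.091 and -0.078. The part of gene length in these values was not tested. Without both libraries, a choice made after seeing the data, 0 of the 9 genes passed by limma, and the log2 fold change of *Notch1* was -0.31.

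The other pattern was that of *Dll3* and *Lfng*, whose 2 lowest values were those of replicate 1 in either line. It was common, at 22.7% of all genes tested, and it too went with length, at 35.1% of genes under 2 kb and 6.99% of genes of 8 kb or more. *Dll3* and *Lfng* have 2.88 and 2.28 kb of exon. The log2 values of these genes had a Pearson r of 0.94 over the 6 libraries, which is given as a description, as the libraries share lines. *Notch1* and *Notch3* followed with an r of 0.87, and *Notch2* and *Notch3* with 0.81. *Lfng* and *Notch3* ran in opposite directions, at -0.60. The gene most like each of the 9 over the 6 libraries was *Ltb* for *Lfng* (r = 0.998), *Setd1a* for *Notch3* (0.997), *Cntfr* for *Notch1* (0.994), *Cdyl* for *Rbpj* (0.994), *Dolpp1* for *Dll3* (0.993), *Tenm3* for *Notch2* (0.989), *Pdk4* for *Jag1* (0.987), *Snord49b* for *Dll1* (0.986) and *Trmt61b* for *Hes1* (0.967). An r of 0.95 or more was shared with 220 other genes by *Dll3*, 200 by *Notch3* and 128 by *Lfng*, but with only 6 by *Hes1* and 3 by *Dll1*.

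**Figure D3:**
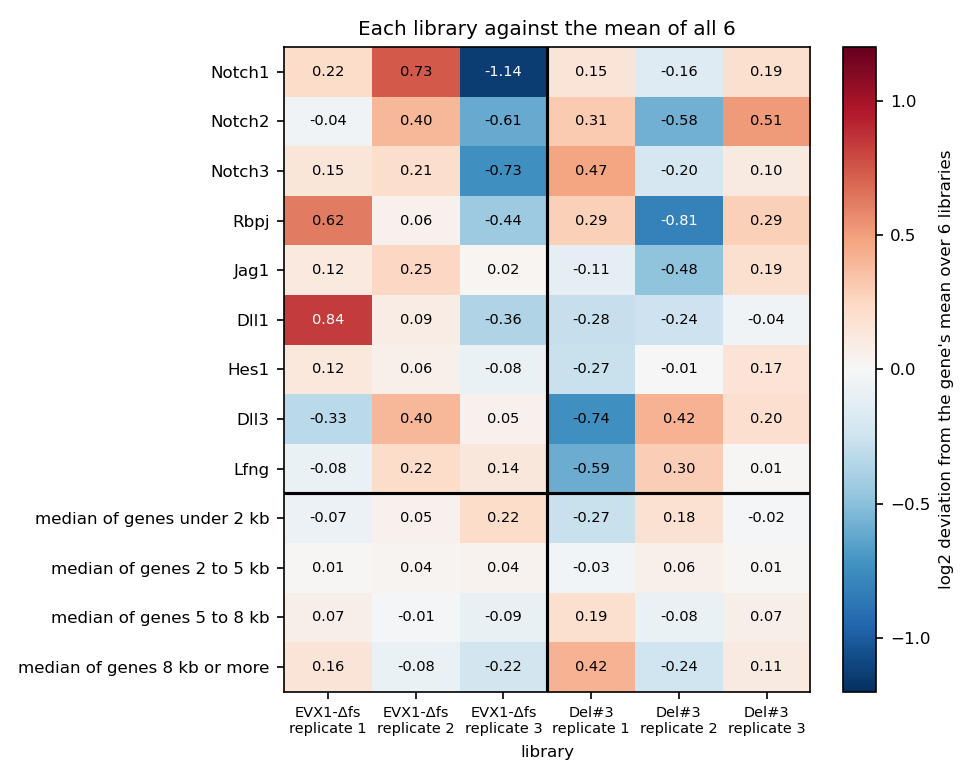
Log2 deviation of each library from a gene's mean over all 6 libraries, as colour and number, for the 9 genes and, under the black line, for the median gene of 4 classes of exon length. *Notch1*, *Notch2*, *Notch3* and *Rbpj* are lowest in EVX1-Δfs replicate 3 and Del#3 replicate 2, where the median gene of 8 kb or more is also low, and *Dll3* and *Lfng* are lowest in the replicate 1 libraries.

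*Lfng* and *Dll3* are the pair whose levels varied most alike, and their promoters are shown for this reason, chosen after the values were seen, with that of *Rbpj*, the other gene holding the RBPJ core. Promoter windows, from 250 bases before to 50 after a RefSeq gene start, were at hand for 8 of the 9 genes (10 windows, GRCm38.p6). The set of windows used held none for *Hes1*. RBPJ binds a core written TGGGAA, which was searched on both strands. It was in 25.6% of all 32851 windows, and in those of *Lfng* and *Rbpj* only among the 8 genes. The longer form GTGGGAA, which contains the core, was in 6.38% of all windows and in that of *Lfng* alone. The *Lfng* window held 2 cores, beginning 135 bases (minus strand) and 108 bases (plus strand) upstream of the start, and the latter is the longer form. The *Dll3* window held none. The N-box CACNAG, a motif bound by Hes repressors, was also searched on both strands, and was in 5 of the 10 windows and 42.5% of all windows, and TATAAA was in 0 of the 10 and 13.6% of all. The first of the 2 overlapping *Rbpj* windows held 2 RBPJ cores, beginning 149 and 65 bases upstream, and the other window shares the second of these. Bases matching the core are in capitals, each window is written on its gene's strand, and a match is no evidence of binding. The windows are *Lfng* at chr5:140607091-140607390 (plus strand), *Dll3* at chr7:28301736-28302035 (minus strand) and *Rbpj* at chr5:53590096-53590395 (plus strand), all in GRCm38.p6.
Lfng: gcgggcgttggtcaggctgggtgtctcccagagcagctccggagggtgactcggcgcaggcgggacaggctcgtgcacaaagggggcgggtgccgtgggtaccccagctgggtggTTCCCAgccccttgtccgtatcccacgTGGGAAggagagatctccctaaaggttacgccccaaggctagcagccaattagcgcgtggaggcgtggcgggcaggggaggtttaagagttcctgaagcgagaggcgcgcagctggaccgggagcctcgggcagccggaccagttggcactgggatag
Dll3: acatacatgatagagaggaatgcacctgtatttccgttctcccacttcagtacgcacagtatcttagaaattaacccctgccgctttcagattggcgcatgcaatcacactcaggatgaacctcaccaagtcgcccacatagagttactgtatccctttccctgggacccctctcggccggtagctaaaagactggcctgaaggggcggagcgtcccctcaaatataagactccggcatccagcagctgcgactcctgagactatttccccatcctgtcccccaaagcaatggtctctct
Rbpj: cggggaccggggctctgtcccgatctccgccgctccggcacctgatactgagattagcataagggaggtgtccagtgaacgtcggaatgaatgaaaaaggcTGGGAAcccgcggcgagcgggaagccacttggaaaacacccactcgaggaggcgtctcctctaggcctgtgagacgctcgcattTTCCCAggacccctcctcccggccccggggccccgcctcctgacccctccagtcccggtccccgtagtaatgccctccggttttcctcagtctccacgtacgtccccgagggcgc

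Levels of different genes were compared as normalized counts per kb of exon. *Hes1* was highest, at 202 ± 14.5 for EVX1-Δfs and 194 ± 28.9 for Del#3 (mean ± SD, n = 3 each). *Dll3* followed with 169 ± 41.9 and 165 ± 61.6, and then *Notch3* with 121 ± 39.0 and 140 ± 32.8, in the same order of lines and with the same n. The middle of the order was formed by *Jag1*, with 58.4 to 97.1 over all libraries, *Lfng* with 51.7 to 96.2, *Notch2* with 44.1 to 96.2 and *Rbpj* with 31.9 to 86.5. *Notch1* had 14.9 to 55.0, and *Dll1* was lowest with 7.84 to 18.3. Neighbours in this order overlapped over the 6 libraries in each of the 8 steps. Library by library, *Rbpj* was above *Notch1* and *Notch1* above *Dll1* in 6 of 6 libraries, whereas *Hes1* was above *Dll3* in 4 of 6. With the longest protein-coding transcript as the length, chosen after the data were seen, the order of the means was the same, though *Notch1* then had a mean of 53.1 per kb over all libraries in place of 35.4. By this length *Rbpj* was above *Notch1* in 4 of 6 libraries and *Hes1* above *Dll3* in 6 of 6, so these counts depend on the length used. Of the Delta ligands, *Dll3* had 95.8 to 214 per kb, far above the range of *Dll1*.

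A list of 50 other Notch pathway genes held 46 that were in the table, of which 40 were tested. Of these 40, 26 were higher and 14 lower in Del#3, with a median log2 fold change of 0.049, against 0.0022 for all genes. This median turned to -0.039 without EVX1-Δfs replicate 3 and to -0.011 without Del#3 replicate 1. The low values in EVX1-Δfs replicate 3 and Del#3 replicate 2 described above were shared by 11 of the 40, or 27.5%, against 12.6% of all genes. By limma, 0 of the 40 had an adjusted p under 0.05 without or with the block, and by edgeR and DESeq2 the number was also 0. Unadjusted, 0 had a p under 0.05 without the block, and at most 2 did in any alternative. With the block in limma 1 of the 40 did, where 4.62% of all genes did, so the count is no result about these genes. It was *Adam10*, the protease that makes the first activating cut in Notch, named after its values were seen. It had 356, 196 and 197 normalized counts in EVX1-Δfs and 461, 222 and 468 in Del#3, higher in Del#3 in 3 of 3 pairs, with a log2 fold change of 0.60 (standard error 0.37, adjusted p = 1.00 without and 0.992 with the block by limma). *Poglut1*, which puts glucose on Notch, was the 1 gene of the 40 whose lines did not overlap, where 3.51% of all genes had no overlap, and it too was named for this. It had 255 to 297 normalized counts in EVX1-Δfs and 199 to 253 in Del#3, with a log2 fold change of -0.27 (standard error 0.25, adjusted p = 1.00 by limma). The signs agreed over all 3 pairs for 8 of the 40, or 20.0%, near the share of all genes given above.

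By role, the most abundant gene per kb of each group is given. *Jag2* led the other ligands, with 179 to 288 normalized counts in EVX1-Δfs and 150 to 226 in Del#3. *Dll4*, the ligand of arterial endothelium, had 1 to 8 reads per library and was not tested. *Notch4*, the remaining receptor, had 68.0 to 173 and 78.9 to 160. *Psenen*, a small γ-secretase subunit, led the 9 genes of receptor cleavage with 274 to 286 and 251 to 341. *Rfng*, another fringe enzyme, led the glycosylation group with 88.6 to 275 and 147 to 325, although *Pofut1* was ahead (119 against 98.3 per kb) with the length of the longest coding transcript. *Mib2*, which ubiquitylates ligands, had 332 to 490 and 367 to 490. Among nuclear partners, *Snw1*, also a splicing factor, was highest with 741 to 1410 and 552 to 1207. Of the 11 corepressors and antagonists, 10 had log2 fold changes above 0 and 1 below, none past the threshold, and their median was 0.19. *Dtx3* led them per kb of exon with 444 to 688 and 482 to 834, and *Dtx2* led with the transcript length (325 against 300.3 per kb).

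Of the other Hes, Hey and Notch-dependent targets, 5 were tested, of which 1 was higher and 4 were lower in Del#3, none past the threshold. *Nrarp*, a target that feeds back on the receptor, had 305, 427 and 434 normalized counts in EVX1-Δfs and 281, 460 and 362 in Del#3. *Hey1*, a target in cardiovascular mesoderm that was named after its values were seen, had 213, 367 and 341 in EVX1-Δfs and 204, 341 and 342 in Del#3, so that 99.0% of its sum of squares lay between replicate numbers. Both had their lowest values in the replicate 1 libraries, as *Dll3* and *Lfng* did, a pattern found in 6 of the 40 other pathway genes (15.0%) and 22.7% of all genes. *Hes5*, *Hes7* and *Heyl* had at most 9 reads in any library and were not tested.

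**Figure D4:**
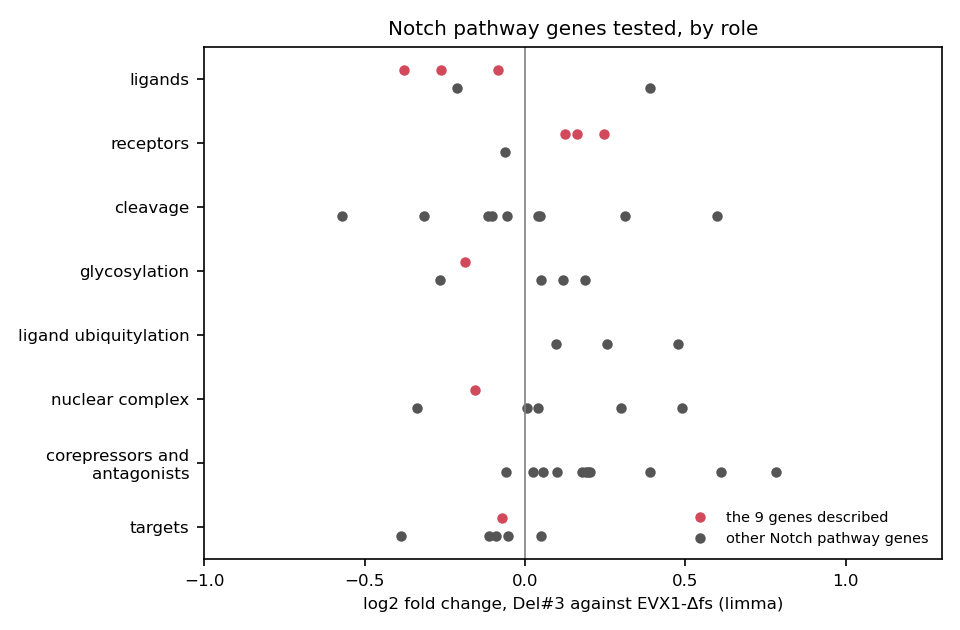
Log2 fold change by limma in Del#3 against EVX1-Δfs (horizontal axis) of the 9 genes (red) and the 40 other Notch pathway genes tested (grey), in rows by role. None of the points passed the threshold, with the red ligands left of 0 and the red receptors right of it by limma, where *Notch1* was at -0.049 by edgeR and -0.060 by DESeq2.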

How the data were processed

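The authors aligned Ion Proton mRNA-seq reads (TopHat2, then TMAP, mm9), assigned them to genes with HTSeq and normalized them with DESeq2, per the paper's methods and the submitters' processing notes, which give no versions. The deposited signal values, 1 per gene and library for 6 libraries, are counts divided by a size factor. All (100%) were multiples of a per-library step within 0.01 of a whole number, which gave back the reads, between 9024579 and 15699124 per library. 2 empty columns were not used.

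Lines were compared with limma (version 3.58.1, R 4.3.3; intensity trend) on log2(normalized count + 1) over the 12891 genes passing edgeR's filterByExpr (version 4.0.16, minimum count 10), with Benjamini-Hochberg adjustment over all of them. DESeq2 (version 1.42.0) and edgeR were run on the recovered reads, and methods were tested on simulated data. By the paper's methods, replicates differ in day and compared lines share it; equal numbers were taken as the same day, which the titles do not state. Deviations of same-numbered libraries from the line means correlated across genes at 0.74, 0.32 and -0.053 for numbers 1 to 3, whereas EVX1-Δfs replicate 3 and Del#3 replicate 2 reached 0.42. Alternatives were other tests, scalings, pseudocounts (0.1 and 5), filters, the block, and leaving out libraries.

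Lengths and positions are those of GENCODE on NCBIM37, the same assembly as mm9; the annotation the authors counted on is not given in the sources used here. Named genes were the 9, any other pathway gene past the threshold (or with an unadjusted p under 0.05 without the block), *Evx1* and *Evx1as*, the most abundant other pathway gene per kb of each role, and the gene most like each of the 9 in Pearson r. *Adam10*, *Poglut1*, *Hey1*, *Pofut1* and *Dtx2*, the markers and the pathway genes too low to test were named outside this rule, after their values were seen. Members and lists were chosen with earlier results of these data known. Results for 1 gene of the pathway list are not reported here.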

Additional observations from a re-analysis of the deposited data

How the results depend on the processing

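The count of 0 among the 9 genes, and of 0 among the other pathway genes, held in all 18 alternatives, which include leaving out each library. Over all genes, 2 passed as reported and 18 with the replicate block in DESeq2, and the cause of the rise was not tested. The replicate block in limma and in edgeR gave 3. It changed no call among the 9 genes. Same-numbered libraries did not pair in every case, as the correlation for number 3 was -0.053.

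Signs were less stable than calls. *Notch1* turned from 0.12 to -0.049 by edgeR's quasi-likelihood test and to -0.060 by DESeq2's Wald test, and the cause was not tested. It was -0.31 without EVX1-Δfs replicate 3 and Del#3 replicate 2 together, a fit added after the data were seen. When 1 library was left out at a time, log2 fold changes ranged from -0.42 to 0.52 for *Notch1*, from -0.10 to 0.49 for *Notch2*, from -0.057 to 0.42 for *Notch3*, from -0.31 to 0.27 for *Dll3*, from -0.38 to 0.061 for *Lfng*, from -0.42 to 0.21 for *Rbpj* and from -0.17 to 0.045 for *Hes1*. *Dll1* and *Jag1* stayed below 0 in all 18 alternatives, from -0.65 to -0.053 and from -0.42 to -0.086. The lowest unadjusted p of the 9 genes over these alternatives was 0.160, for *Notch2* without Del#3 replicate 2. *Evx1* and *Evx1as* passed in all 18. *Dll1* had the fewest reads, 28 to 117 per library. Counting error and spread between libraries were not separated.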
